A study of Mus musculus with 4 samples.

Results

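The genes described here are 42 interferon-stimulated genes, a list of genes that interferons are known to switch on in mouse cells, taken by symbol from a table of 54532 genes. They were measured by RNA sequencing in 4 libraries of C3H10T1/2, a mouse embryonic cell line labelled as mesenchymal stem cells. The DKO group had 2 libraries, clone 1 and clone 5, labelled as knockouts of DNMT3A and DNMT3B, the enzymes that place new methyl groups on DNA. PRDX1MT was 1 library of a line edited with CRISPR at a splice acceptor of Prdx1, and its genotype label also calls it a Prdx1 knockout. WT was 1 library of unedited cells. All 4 libraries share the parental line and the culture medium, and the labels name no interferon, virus or other agent. Whether the Prdx1 edit is present in the DKO clones too is not stated. The edited libraries are labelled as single lines or clones, so an edit and the history of its clone cannot be told apart.

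Interferons are secreted proteins that bind receptors on the cell surface and, through JAK kinases, activate STAT proteins. A complex that holds STAT2 and IRF9 binds the interferon-stimulated response element (ISRE), and the gamma-activated sequence (GAS) is the other known element of these genes. The genes they switch on sense foreign nucleic acid, block viral RNA and present antigen, and many are also read at a low level with no interferon present. Loss of DNA methylation is known from other cells to raise such genes by way of transcripts from endogenous retroviruses, which is the reason for following this list in DNMT3A and DNMT3B knockouts.

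The libraries held 27570136 to 37685798 counted reads. Prdx1 stood at 392 and 332 CPM, the counts scaled to a common library size, in DKO clones 1 and 5, at 31.2 CPM in PRDX1MT and at 399 CPM in WT, so the library labelled PRDX1MT had 12.8-fold less Prdx1 RNA than WT. Dnmt3a at 31.3, 25.9, 80.9 and 43.7 CPM in DKO clone 1, DKO clone 5, PRDX1MT and WT does not check the DKO label, since an edited gene can still be transcribed. Dnmt3b was low throughout, at 2.83, 2.03, 3.74 and 3.28 CPM in the same order. All 11 mesenchymal markers had reads in all 4 libraries, with sums of 47590, 60050, 44170 and 32890 CPM in DKO clone 1, DKO clone 5, PRDX1MT and WT, although Thy1 had only 27, 38 and 22 reads in DKO clone 1, DKO clone 5 and PRDX1MT, against 1192 in WT. The 8 leukocyte and macrophage markers, cells rich in interferon-stimulated genes, summed to 9.70 and 4.90 CPM in DKO clones 1 and 5, 8.48 CPM in PRDX1MT and 3.18 CPM in WT. Reads fell on 3, 5, 4 and 3 of the 8 in these libraries. Ptprc had 4 reads in PRDX1MT and 0 in the other libraries, and Adgre1 and Cd3e had 0 in all 4.

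In WT cells the list as a whole was read at a low to moderate level. TPM values, which divide reads by exon length and so allow genes to be ranked within a library, were highest for B2m at 974 TPM, followed by Ifi27 at 132 TPM and Stat2 at 38.5 TPM. At the other end were classical responders to interferon: 9 members had under 20 reads in all 4 libraries together and could not be compared. They were Zbp1 with 7, 2, 6 and 4 reads in DKO clone 1, DKO clone 5, PRDX1MT and WT, Oas1a with 3, 2, 2 and 7, Cxcl10 with 5, 3, 3 and 0, and Psmb8 with 1, 0, 1 and 8. Mx1 had 0, 0, 2 and 6 reads in that order, Trim25 1, 0, 2 and 0, Oas3 0, 0, 2 and 0, Oasl1 1, 0, 0 and 1, and Rsad2 0, 0, 1 and 0. A count of 0 allows up to 0.0841, 0.109, 0.121 and 0.0729 CPM in these libraries (3 counts of the scaled library, for counting error alone). These genes include several of the strongest known responders to interferon, and none of the 9 had more than 8 reads in any library.

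**Figure D1:**
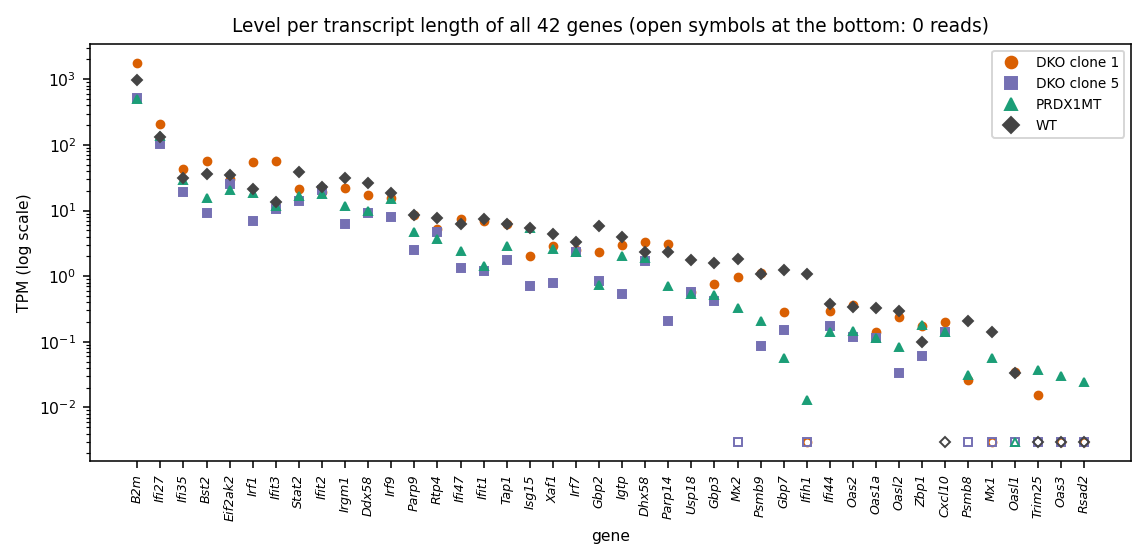
Level of each of the 42 members in TPM on a log axis, with 1 symbol per library and members in order of their mean level; open symbols mark 0 reads. B2m stands at the top at 974 TPM in WT, and members such as Rsad2, Oas3 and Trim25 lie at or near 0 in all 4 libraries.

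Each edited library was set against WT by the ratio of its CPM after scaling by the trimmed mean of M values (TMM). PRDX1MT and WT have 1 library each, so ratios between single libraries are described by their size. An edgeR contrast of PRDX1MT with WT, whose spread comes from the DKO clones alone, called 0 of 33 members and 0 of 19446 genes, and 3 members had an unadjusted p under 0.05. A member is called higher or lower here by size: a log2 ratio of at least 1 in either direction, at least 100 reads in both libraries together, and a 95% exact binomial interval of the ratio that excludes no difference, which covers counting error only. By this rule 14 of 24 members with enough reads (58.3%) were lower in DKO clone 5 than in WT and 0 were higher, beside 8.59% lower and 5.69% higher among all 12626 genes with enough reads. In DKO clone 1, 3 of 25 members (12%) were higher and 2 (8%) lower than in WT, beside 8.41% and 7.59% of all genes, so the count of lower members lay at the background. In PRDX1MT, 4 of 24 members (16.7%) were lower than in WT and 0 higher, beside 7.57% and 7.26% of all genes. Scaling by total counts moved the median gene by -0.27 on the log2 scale in this comparison and made the count 9 of 24, all lower. Ifih1 is among the lower members in each of these counts, and it reached the minimum of reads through its WT reads alone. Ifit1, Parp14 and Gbp2, the other members lower in PRDX1MT, also had over 100 reads in WT and fewer in PRDX1MT. In DKO clone 5 the same held for these genes and for Tap1, Xaf1 and Ifi47. The rule thus admits members more easily where they are high in WT. With a minimum of 500 reads, 5 of 11 members passed in DKO clone 5 and 0 of 12 in PRDX1MT, beside 10.3% and 9.58% of all genes. Fewer cells that read a gene and less RNA per cell cannot be told apart in such bulk samples.

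The median over the list gave the same order of libraries. Over the 33 members that passed the filter on low counts, the median log2 ratio to WT was -0.06 in DKO clone 1, -1.45 in DKO clone 5 and -0.67 in PRDX1MT, beside -0.04, -0.02 and -0.01 over all 19446 genes tested. Members below WT numbered 18, 32 and 25 of 33 in these libraries (54.5%, 97% and 75.8%), beside 52.6%, 51.6% and 50.8% of all genes. All 3 comparisons share the WT library. The summed level of the 42 members was 1003 and 406.2 CPM in DKO clones 1 and 5, 527.4 CPM in PRDX1MT and 672.1 CPM in WT, and B2m alone made up 482, 153, 164 and 230 CPM of these sums.

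**Figure D2:**
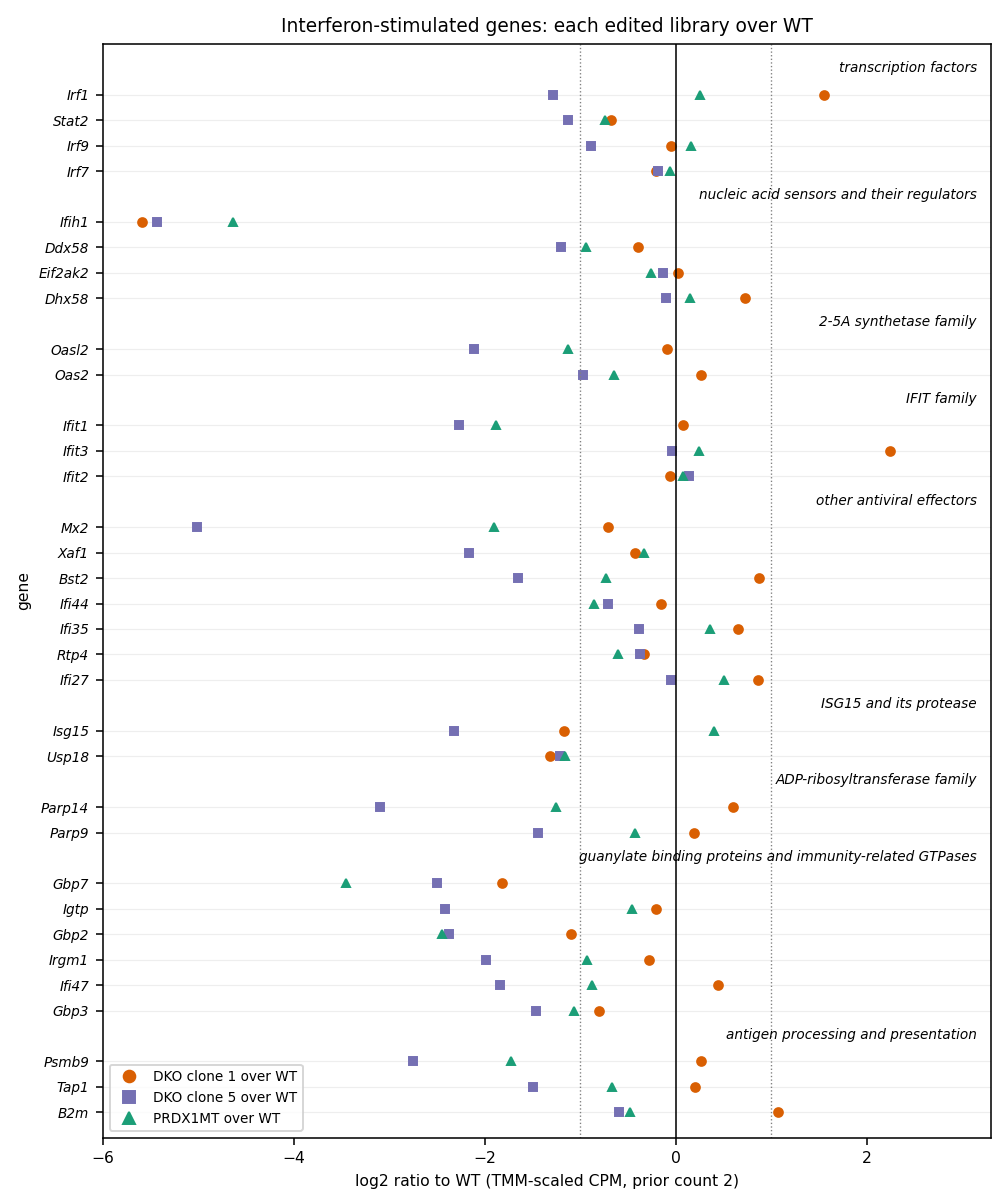
Log2 ratio to WT of the 33 members that passed the low-count filter, in DKO clone 1, DKO clone 5 and PRDX1MT, grouped by role. The symbols of DKO clone 5 lie below 0 for 32 of 33 members, those of DKO clone 1 scatter around 0 (median -0.06), and those of PRDX1MT have a median of -0.67.

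**Figure D3:**
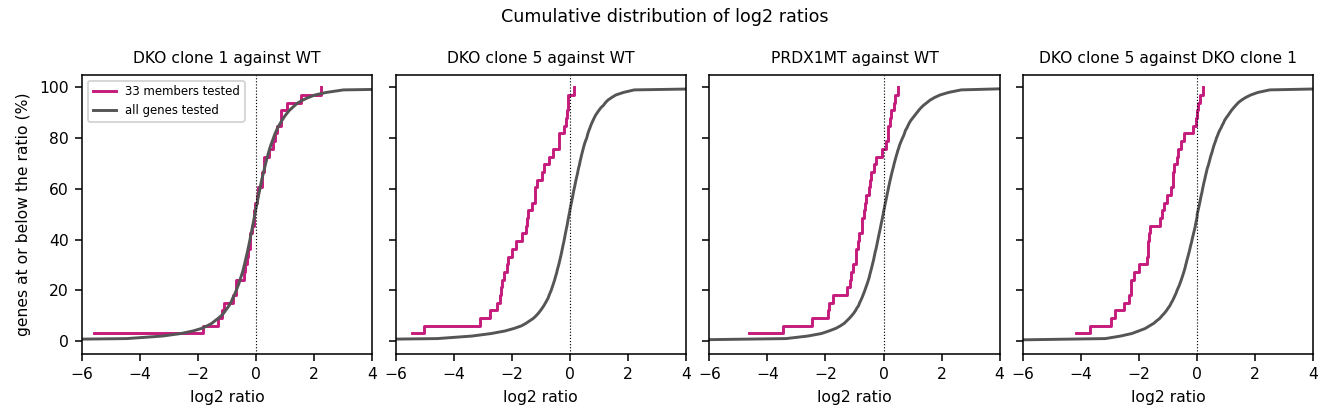
Cumulative share of the tested members and of all genes tested (vertical axis) at or below each log2 ratio (horizontal axis), in 1 panel for each comparison. The curve of the members lies to the left of that of all genes in DKO clone 5 against WT and in DKO clone 5 against DKO clone 1, with medians of -1.45 and -1.21. In PRDX1MT against WT the median of the members was also lower, at -0.67 beside -0.01 for all genes. The curves lie close in DKO clone 1 against WT.

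Taken as 1 group, the DKO libraries had no member that passed the test. In edgeR's quasi-likelihood test with Benjamini-Hochberg adjustment over all 19446 genes, 0 of 33 members passed an adjusted p of 0.05 against WT, where 0.468% of all genes did (0.0154% higher and 0.453% lower). Against PRDX1MT 0 of 33 passed, where 0.206% of all genes did (0.0103% higher and 0.195% lower). Against WT 2 members, Ifih1 and Gbp7, had an unadjusted p under 0.05, beside 988 of all genes (5.08%), and DESeq2 called 1, Ifih1. Against PRDX1MT 1 member, Isg15, had an unadjusted p under 0.05, beside 912 of all genes (4.69%), and DESeq2 called 0. These tests have 1 residual degree of freedom, from the spread between the DKO clones. Each clone has 1 library, so the p-values measure the spread between these clones and not that between repeat cultures of 1 line. The median of the members in the DKO group was -0.41 against WT and 0.23 against PRDX1MT on the log2 scale, beside 0.03 and 0.04 for all genes. The median against WT was -1.45 without clone 1 and -0.06 without clone 5, and that against PRDX1MT was -0.55 without clone 1 and 0.62 without clone 5.

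The DKO clones differed from each other. Relative to DKO clone 1, DKO clone 5 was lower by the size rule in 12 of 21 members with enough reads (57.1%) and higher in 0, beside 10.7% and 7.63% of all 12317 genes. The median log2 ratio of clone 5 over clone 1 was -1.21 over the 33 tested members, beside 0.0005 over all genes. The 12 were Irf1, Ifit1, Ifit3, Bst2, Xaf1, Ifi35, Parp9, Parp14, Irgm1, Ifi47, Tap1 and B2m, and 29 of 33 members (87.9%) lay below clone 1, beside 49.1% of all genes. Lyz2, a macrophage marker, had 1 read in DKO clone 5 and 133 in DKO clone 1, with 51 in PRDX1MT and 10 in WT. It is only 1 of the leukocyte and macrophage markers, and more of them had reads in DKO clone 5 (5) than in DKO clone 1 (3). The part of Lyz2 in the result was not tested.

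Where a member's promoter is shown, it is the RefSeq window of 250 bases before to 50 bases after the start site on GRCm38.p6, printed along the gene's strand from 5′ to 3′. Capitals mark matches to the ISRE core, which is GAAA, any 2 bases and GAAA again on either strand, and to the GAS core TTCNNNGAA, which reads alike on both strands. A window was found for 32 of the 42 members and none for Dhx58, Zbp1, Oas2, Mx1, Mx2, Rtp4, Ifi27, Usp18, Parp9 and Parp14. An ISRE match lay in 18 of 32 windows (56.2%), beside 343 of 11558 genes tested (2.97%), and a GAS match in 9 of 32 (28.1%), beside 6.83%. The members' windows held a median of 8.5 CpG sites (range 1 to 32), beside 20 in the windows of all genes tested and 7 in those of all genes in the table. CpG sites are where DNMT3A and DNMT3B act, and no methylation was measured here. Of the members with under 20 reads, 4 of 7 windows held an ISRE match, and of those with more reads 14 of 25. The 6 promoters below are those of the sensor lowest in the edited libraries, of the neighbouring IFIT genes, whose levels went apart, and of the factor and the antigen-presentation gene that were higher in DKO clone 1.
Ifih1: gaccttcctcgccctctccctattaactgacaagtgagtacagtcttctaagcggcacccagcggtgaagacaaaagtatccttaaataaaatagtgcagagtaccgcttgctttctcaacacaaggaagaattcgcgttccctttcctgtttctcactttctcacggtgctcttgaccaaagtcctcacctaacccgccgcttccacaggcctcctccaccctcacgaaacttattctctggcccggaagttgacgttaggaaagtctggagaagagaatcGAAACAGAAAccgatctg
Ifit1: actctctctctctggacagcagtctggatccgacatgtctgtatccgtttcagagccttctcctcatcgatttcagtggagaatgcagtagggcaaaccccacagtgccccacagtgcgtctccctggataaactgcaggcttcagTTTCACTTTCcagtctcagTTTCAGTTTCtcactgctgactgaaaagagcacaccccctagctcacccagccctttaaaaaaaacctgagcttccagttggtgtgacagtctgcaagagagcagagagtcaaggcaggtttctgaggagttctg
Ifit2: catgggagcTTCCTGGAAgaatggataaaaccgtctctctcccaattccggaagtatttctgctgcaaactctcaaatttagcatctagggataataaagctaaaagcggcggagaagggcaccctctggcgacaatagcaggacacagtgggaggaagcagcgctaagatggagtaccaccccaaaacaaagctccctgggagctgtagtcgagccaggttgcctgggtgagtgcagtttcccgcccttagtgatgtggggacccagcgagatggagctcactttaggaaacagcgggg
Ifit3: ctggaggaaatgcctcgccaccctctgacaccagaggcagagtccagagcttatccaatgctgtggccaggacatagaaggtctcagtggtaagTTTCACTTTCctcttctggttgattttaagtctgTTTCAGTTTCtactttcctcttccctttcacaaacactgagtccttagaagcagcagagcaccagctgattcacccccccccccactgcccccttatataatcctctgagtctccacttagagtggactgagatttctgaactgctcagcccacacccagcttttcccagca
Irf1: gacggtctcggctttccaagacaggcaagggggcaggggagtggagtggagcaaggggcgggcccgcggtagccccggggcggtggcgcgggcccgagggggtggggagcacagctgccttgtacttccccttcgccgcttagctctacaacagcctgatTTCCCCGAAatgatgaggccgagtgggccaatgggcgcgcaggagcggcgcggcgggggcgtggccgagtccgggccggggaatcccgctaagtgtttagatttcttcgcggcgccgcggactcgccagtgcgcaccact
B2m: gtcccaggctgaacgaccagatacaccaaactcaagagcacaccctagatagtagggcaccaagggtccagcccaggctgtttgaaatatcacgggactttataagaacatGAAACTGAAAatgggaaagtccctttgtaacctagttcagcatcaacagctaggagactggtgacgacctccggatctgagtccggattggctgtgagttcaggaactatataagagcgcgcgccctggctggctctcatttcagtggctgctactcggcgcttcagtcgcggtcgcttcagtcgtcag
The windows of Ifih1 (chr2:62646206-62646505, minus strand) and B2m (chr2:122147437-122147736, plus strand) hold 1 ISRE match each, 32 bases after the start in Ifih1 and 139 bases before it in B2m. Those of Ifit1 (chr19:34640639-34640938) and Ifit3 (chr19:34583279-34583578), both on the plus strand, hold the same pair of ISRE matches, TTTCACTTTC and TTTCAGTTTC, the nearer lying 85 bases upstream in Ifit1 and 122 bases upstream in Ifit3. The window of Ifit2 (chr19:34550444-34550743, plus strand) holds no ISRE match and 1 GAS match. That of Irf1 (chr11:53769764-53770063, plus strand) holds no ISRE match, 1 GAS match, and the 32 CpG sites that are the most among the members. A match is a description of the letters and does not show that a factor binds there.

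The transcription factors that carry the interferon signal were present in every library. Stat2, a subunit of the complex that binds the ISRE, stood at 39.1 CPM in DKO clone 1, 28.5 CPM in DKO clone 5, 37.5 CPM in PRDX1MT and 62.6 CPM in WT. It was thus highest in WT, and the difference passed the size rule in DKO clone 5, where it was 2.20-fold lower (95% interval 2.03 to 2.38). Irf9, its DNA-binding partner, had 26.6, 14.8, 30.7 and 27.5 CPM in that order, and only DKO clone 5 stood apart from the other libraries, at a log2 ratio to WT of -0.89. Irf7, which amplifies the type I response, lay between 2.97 and 3.45 CPM in all 4 libraries.

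Irf1, a factor that responds mainly to interferon gamma, was the member that differed most between the DKO clones in this role. It lies at chr11:53770014-53778374 on the plus strand and had 2434 reads in DKO clone 1, 262 in DKO clone 5, 693 in PRDX1MT and 961 in WT. In CPM these were 68.2, 9.52, 27.9 and 23.4, so the DKO clones lay on opposite sides of both other libraries. Clone 1 was 2.92-fold higher than WT (log2 ratio 1.55, 95% interval 1.44 to 1.66) and clone 5 was 2.45-fold lower (95% interval 2.14 to 2.82). Clone 5 was 7.17-fold lower than clone 1 (95% interval 6.31 to 8.18). The DKO mean of 38.9 ± 41.5 CPM (SD, n = 2) carries a spread as large as itself, and edgeR's log2 ratio to WT was 0.74 with a standard error of 0.98.

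Among the sensors of foreign nucleic acid, Ifih1 was at or near 0 in every edited library. Ifih1 encodes MDA5, which detects long RNA duplexes, and lies at chr2:62595798-62646255 on the minus strand. It had 0 reads in DKO clone 1, 0 in DKO clone 5, 1 in PRDX1MT and 101 in WT. WT was thus the only library with more than 1 read, although its level was low, at 2.45 CPM (95% Poisson interval 2.00 to 2.98) or 1.10 TPM. Set against a floor of 3 counts per library, Ifih1 was at least 29.2-fold lower in DKO clone 1 and at least 22.5-fold lower in DKO clone 5 than in WT. In PRDX1MT it was 61.1-fold lower, with a 95% counting interval of 10.7 to 2435. In the edgeR test of DKO against WT it had an adjusted p of 0.0869. With WT alone as the reference, its edgeR adjusted p ran from 3.434e-07 with no filter on low counts to 0.1008 with total counts. It did not pass the filter of at least 1 CPM in at least 2 libraries, since WT alone reached that level. Ifih1 entered the main test through its WT reads alone, so against WT it could only come out lower. Against PRDX1MT and WT joined, a different reference, its log2 ratio was -8.31 without clone 1 and -8.42 without clone 5. DESeq2 gave 0.01017. PRDX1MT, for which the labels name no DNMT3A or DNMT3B edit, had a single read as well.

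The other sensors with enough reads were present in all 4 libraries. Ddx58, which encodes RIG-I, had 38.6 and 22.0 CPM in DKO clones 1 and 5, 26.4 CPM in PRDX1MT and 50.9 CPM in WT, and was 2.31-fold lower than WT in DKO clone 5 (95% interval 2.11 to 2.54). Dhx58, which encodes the regulator LGP2, had 3.45, 1.92, 2.29 and 2.07 CPM in that order and passed the size rule in none of these libraries. Eif2ak2, the kinase PKR that halts translation on binding RNA duplexes, was among the steadiest members, at 46.2 ± 3.59 CPM in DKO (SD, n = 2), 40.1 CPM in PRDX1MT and 48.1 CPM in WT. Of 4 sensors with enough reads, 1, 2 and 1 were lower than WT in DKO clone 1, DKO clone 5 and PRDX1MT, and 0 were higher, beside 7.59%, 8.59% and 7.57% lower among all genes. The sensor lower in all of these libraries was Ifih1, which reached the minimum of reads through its WT reads alone. With almost no reads in the edited libraries, it could enter the counts only as lower. With so few members, these counts of sensors set nothing apart from the background.

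The IFIT genes lie side by side on chromosome 19, and their proteins bind viral RNA. Their levels did not go together. Ifit2 (chr19:34550694-34576419) had 23.9 and 27.4 CPM in DKO clones 1 and 5, 26.3 CPM in PRDX1MT and 24.98 CPM in WT, a narrow range. Ifit3 (chr19:34583531-34588731) had 30.8 CPM in DKO clone 1 but 6.28 CPM in DKO clone 5, 7.68 CPM in PRDX1MT and 6.49 CPM in WT. It was high in DKO clone 1 alone, 4.75-fold above WT (log2 ratio 2.24, 95% interval 2.05 to 2.45), and DKO clone 5 was 4.90-fold lower than DKO clone 1 (95% interval 4.17 to 5.79). Ifit1 (chr19:34640871-34650009) had 206 and 30 reads in DKO clones 1 and 5, 36 in PRDX1MT and 226 in WT. Here DKO clone 1 stood with WT, while DKO clone 5 was 5.04-fold lower (95% interval 3.43 to 7.65) and PRDX1MT 3.80-fold lower (2.66 to 5.56). Ifit3b, a near-identical copy of Ifit3 that is not on the list, had 298, 89, 69 and 135 reads in DKO clone 1, DKO clone 5, PRDX1MT and WT, and reads may be split between the copies.

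**Figure D4:**
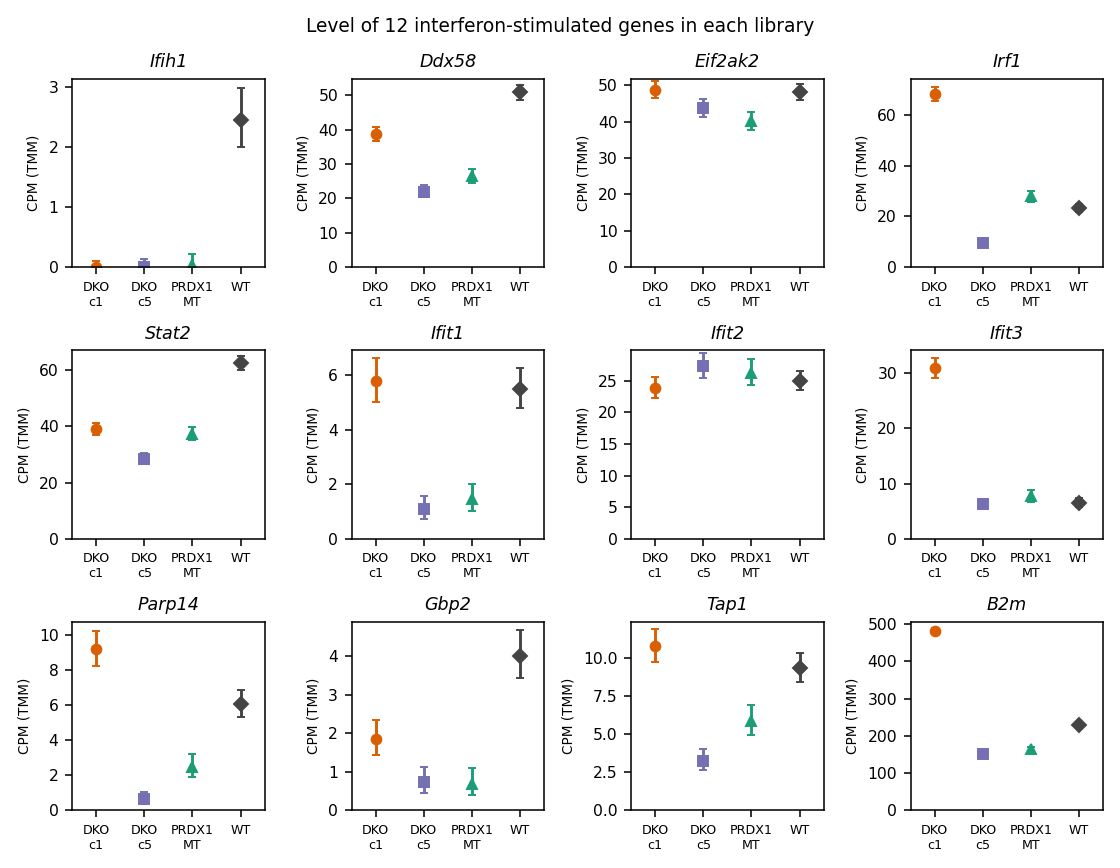
TMM-scaled CPM of 12 members in DKO clone 1, DKO clone 5, PRDX1MT and WT, from left to right, with 95% Poisson intervals that cover counting error only. Ifih1 is present in WT at 2.45 CPM and at or near 0 elsewhere, Irf1 and Ifit3 are highest in DKO clone 1, and Eif2ak2 and Ifit2 are close to level.

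The oligoadenylate synthetases, which make the messenger that activates RNase L, were too scarce to compare. Oas2 had 18 and 5 reads in DKO clones 1 and 5, 6 in PRDX1MT and 17 in WT, and Oasl2 had 17, 2, 5 and 21 in that order. For neither gene were there 100 reads in any pair of libraries.

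Of the other antiviral effectors, those with most reads differed mainly between the DKO clones. Ifi27, a mitochondrial protein, had 96.5 and 51.6 CPM in DKO clones 1 and 5, 75.4 CPM in PRDX1MT and 53.3 CPM in WT, and its log2 ratio to WT of 0.86 in DKO clone 1 did not reach the size rule. Ifi35 had 22.96, 11.1, 18.7 and 14.6 CPM in that order, and 16.8% of its exonic bases overlap another gene. Bst2, the tetherin that holds budding virus at the membrane, had 16.3 and 2.80 CPM in DKO clones 1 and 5, 5.35 CPM in PRDX1MT and 8.89 CPM in WT. DKO clone 1 was the highest library and DKO clone 5 the lowest, 5.84-fold apart (95% interval 4.59 to 7.50). Xaf1 had 4.26 and 1.23 CPM in DKO clones 1 and 5, 4.54 CPM in PRDX1MT and 5.73 CPM in WT, 4.64-fold lower in DKO clone 5 than in WT (95% interval 3.23 to 6.87). Mx2, a GTPase related to Mx1, had 39 reads in DKO clone 1, 0 in DKO clone 5, 11 in PRDX1MT and 75 in WT. It fell under the minimum of 100 reads in the comparison of DKO clone 5 with WT, although 0 reads there put it at least 16.7-fold lower. Of this role, 5 members had enough reads in DKO clone 5 against WT, and 2 of them, Bst2 and Xaf1, were lower, beside 8.59% of all genes.

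Isg15, a ubiquitin-like modifier, had 17 and 5 reads in DKO clones 1 and 5, 38 in PRDX1MT and 47 in WT. Usp18, the protease that removes it, had 18, 15, 14 and 55 reads in that order. Both are among the strongest responders to interferon, and both stayed below 2 CPM in all 4 libraries. For Isg15 the DKO clones lay below both other libraries, at 0.329 ± 0.209 CPM (SD, n = 2) in DKO, 1.53 CPM in PRDX1MT and 1.14 CPM in WT. In edgeR's test its log2 ratio was -2.18 (standard error 0.93) against PRDX1MT and -1.76 (standard error 0.92) against WT, with an adjusted p of 1.0 in both comparisons. The highest library for Usp18 was WT, at 1.34 CPM against 0.505 to 0.563 CPM in the edited libraries.

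Both members of the ADP-ribosyltransferase family, which modify host and viral proteins, were lower in DKO clone 5 than in WT by the size rule. Parp14 was lower by more than Parp9. Among all genes 8.59% were lower, and 2 members are too few to set the family apart. Parp14 (chr16:35832874-35871544, minus strand) had 327 reads in DKO clone 1, 18 in DKO clone 5, 62 in PRDX1MT and 249 in WT. It was 9.26-fold lower in DKO clone 5 than in WT (95% interval 5.74 to 15.9) and 2.43-fold lower in PRDX1MT (1.83 to 3.26), while DKO clone 1 stood above WT at a log2 ratio of 0.60. Between the clones this made a 14.0-fold difference, clone 5 being the lower (95% interval 8.74 to 24.0). Parp9, on the same chromosome, had 13.0 and 4.14 CPM in DKO clones 1 and 5, 8.48 CPM in PRDX1MT and 11.4 CPM in WT. Its partner Dtx3l, a ubiquitin ligase that is not on the list, had 15.9, 4.25, 8.56 and 13.3 CPM in that order, and exons of the 2 genes overlap (9.40% of the exonic bases of Parp9).

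Guanylate binding proteins and immunity-related GTPases attack the vacuoles of parasites and bacteria and respond mainly to interferon gamma. Of the 6, 4 had enough reads in each comparison with WT. All 4 of them, Gbp2, Igtp, Irgm1 and Ifi47, were lower in DKO clone 5, and 1 of 4, Gbp2, was lower in DKO clone 1 and in PRDX1MT. Among all genes 8.59%, 7.59% and 7.57% were lower in DKO clone 5, DKO clone 1 and PRDX1MT. Irgm1 had 40.9 and 12.5 CPM in DKO clones 1 and 5, 26.0 CPM in PRDX1MT and 49.7 CPM in WT, 3.99-fold lower in DKO clone 5 than in WT (95% interval 3.56 to 4.49). Ifi47 had 5.69, 1.13, 2.25 and 4.18 CPM in that order, and DKO clone 1 was the highest library. Igtp had 67 and 10 reads in DKO clones 1 and 5, 39 in PRDX1MT and 90 in WT. Gbp2 (chr3:142620602-142638008, plus strand) had 66 and 20 reads in DKO clones 1 and 5, 17 in PRDX1MT and 165 in WT. WT was the highest library for Gbp2, which was 2.17-fold lower in DKO clone 1 (95% interval 1.62 to 2.93), 5.52-fold lower in DKO clone 5 (3.46 to 9.27) and 5.87-fold lower in PRDX1MT (3.56 to 10.3). Its neighbours on chromosome 3 were also highest in WT, Gbp7 with 18, 8, 3 and 79 reads in DKO clone 1, DKO clone 5, PRDX1MT and WT, and Gbp3 with 28, 13, 16 and 58. The edgeR log2 ratio of Gbp7 in DKO against WT was -2.25 (standard error 0.88, adjusted p = 0.863). Gbp genes are close copies of each other, so reads may be split among them.

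Of the 4 members that serve antigen presentation, 2, B2m and Tap1, had enough reads to compare the clones. Both were lower in DKO clone 5 than in DKO clone 1, beside 10.7% of all genes. B2m, the light chain of MHC class I (chr2:122147686-122153083, plus strand), had 17172 reads in DKO clone 1, 4200 in DKO clone 5, 4092 in PRDX1MT and 9462 in WT. DKO clone 1 was the highest library, 2.09-fold above WT (log2 ratio 1.07, 95% interval 1.03 to 1.10), and DKO clone 5 was 3.16-fold below DKO clone 1 (95% interval 3.05 to 3.27). With scaling by total counts B2m in DKO clone 1 stood at 0.97 on the log2 scale and no longer passed the size rule. Tap1, which carries peptides into the endoplasmic reticulum, had 384 and 90 reads in DKO clones 1 and 5, 146 in PRDX1MT and 385 in WT. DKO clone 1 and WT were close, at 10.8 and 9.36 CPM, and DKO clone 5 was 2.86-fold lower than WT (95% interval 2.27 to 3.64). Psmb9, an immunoproteasome subunit, had 46 and 3 reads in DKO clones 1 and 5, 7 in PRDX1MT and 44 in WT. Tap1 and Psmb9 are read in opposite directions from start sites 226 bases apart, and the order of the 4 libraries by CPM was the same for both. Their exons overlap by 3.87% of the bases of Tap1, and with the strand setting of the counting not given, reads there cannot be told apart.

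The upstream part of the pathway was checked with 55 genes. The ligands were too scarce to compare: of 20 interferon genes none had more than 6 reads in any library, and Ifnb1 and Ifng had 0 in all 4. The receptors other than Ifnlr1 were present. Their median log2 ratios to WT were 0.02, 0.06 and -0.29 in DKO clone 1, DKO clone 5 and PRDX1MT, beside -0.04, -0.02 and -0.01 over all genes. Ifnar1 had 83.7 and 90.4 CPM in DKO clones 1 and 5, 70.5 CPM in PRDX1MT and 86.4 CPM in WT, and Ifnar2 29.1, 32.4, 25.3 and 28.7 CPM in that order. The interferon gamma receptor chains ranged from 32.0 to 33.0 CPM in the edited libraries and 27.8 CPM in WT for Ifngr1, and from 30.5 to 49.4 CPM over all 4 libraries for Ifngr2. Il10rb, shared with the interferon lambda receptor, had 12.8, 14.6, 9.97 and 14.0 CPM, and Ifnlr1 had 0 reads in all 4 libraries. None of the 5 receptor chains with reads passed the size rule in any edited library. Among all genes 16%, 14.3% and 14.8% passed it in either direction in DKO clone 1, DKO clone 5 and PRDX1MT. With so few receptors, a count of 0 does not set them apart from the background.

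The JAK kinases were also present. Jak1 had 244 and 257 CPM in DKO clones 1 and 5, 146 CPM in PRDX1MT and 162 CPM in WT, and Tyk2 33.6, 33.2, 54.5 and 52.7 CPM in that order. Jak2 had 39.4, 41.7, 36.1 and 73.5 CPM, highest in WT, and passed the size rule in PRDX1MT with a log2 ratio of -1.02. Stat3, the main carrier of signals from IL-6, had 301 and 119 CPM in DKO clones 1 and 5, 258 CPM in PRDX1MT and 184 CPM in WT, and was 2.53-fold lower in DKO clone 5 than in DKO clone 1. Of the 4 signalling genes tested, 1, Jak2, was lower in PRDX1MT, beside 7.57% of all genes. Against WT 0 passed the rule in either DKO clone, where 16% of all genes did in clone 1 and 14.3% in clone 5. Between the clones 1 of 4, Stat3, was lower in DKO clone 5, beside 10.7% of all genes.

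Among 13 genes that act before interferon is made, 9 had enough reads. In DKO clone 1 and in PRDX1MT 0 of 9 passed the size rule, beside 16% and 14.8% of all genes in either direction. In DKO clone 5, 1 was higher and 1 lower (11.1% each), beside 5.69% and 8.59% of all genes. With so few genes, these counts set nothing apart from the background. In DKO clone 5, Cgas, the sensor of cytosolic DNA, was higher than in WT (log2 ratio 1.49), with 15.8 CPM in DKO clone 5, 6.14 CPM in DKO clone 1, 9.25 CPM in PRDX1MT and 5.56 CPM in WT. Tlr3, which senses RNA duplexes in endosomes, was lower there (log2 ratio -1.15), at 3.20 CPM in DKO clone 5, 4.32 CPM in DKO clone 1, 4.70 CPM in PRDX1MT and 7.17 CPM in WT. Irf3, the factor that starts interferon transcription, had 22.4, 29.7, 26.3 and 24.8 CPM in DKO clone 1, DKO clone 5, PRDX1MT and WT.

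Of 12 inhibitors of the pathway, 11 had enough reads. In PRDX1MT 5 of 11 (45.5%) were higher than in WT, beside 7.26% of all genes. Scaling by total counts moves the median gene by -0.27 in this comparison, and the count of inhibitors was not repeated with it. In DKO clone 1, 3 (27.3%) were higher and 1 (9.09%) lower, beside 8.41% and 7.59%. In DKO clone 5, 0 were higher and 1 (9.09%) lower, beside 5.69% and 8.59%, which is the background. The 1 lower inhibitor in each DKO clone was Nlrx1. Socs1, which blocks JAK kinases, had 39.3 and 17.5 CPM in DKO clones 1 and 5, 28.6 CPM in PRDX1MT and 10.7 CPM in WT. Socs3, which acts mainly on signalling through STAT3, had 303, 85.4, 152 and 64.2 CPM in that order. Both were lowest in WT and highest in DKO clone 1. The log2 ratios to WT were 1.87, 0.71 and 1.42 for Socs1 in DKO clone 1, DKO clone 5 and PRDX1MT, and 2.24, 0.41 and 1.24 for Socs3.

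**Figure D5:**
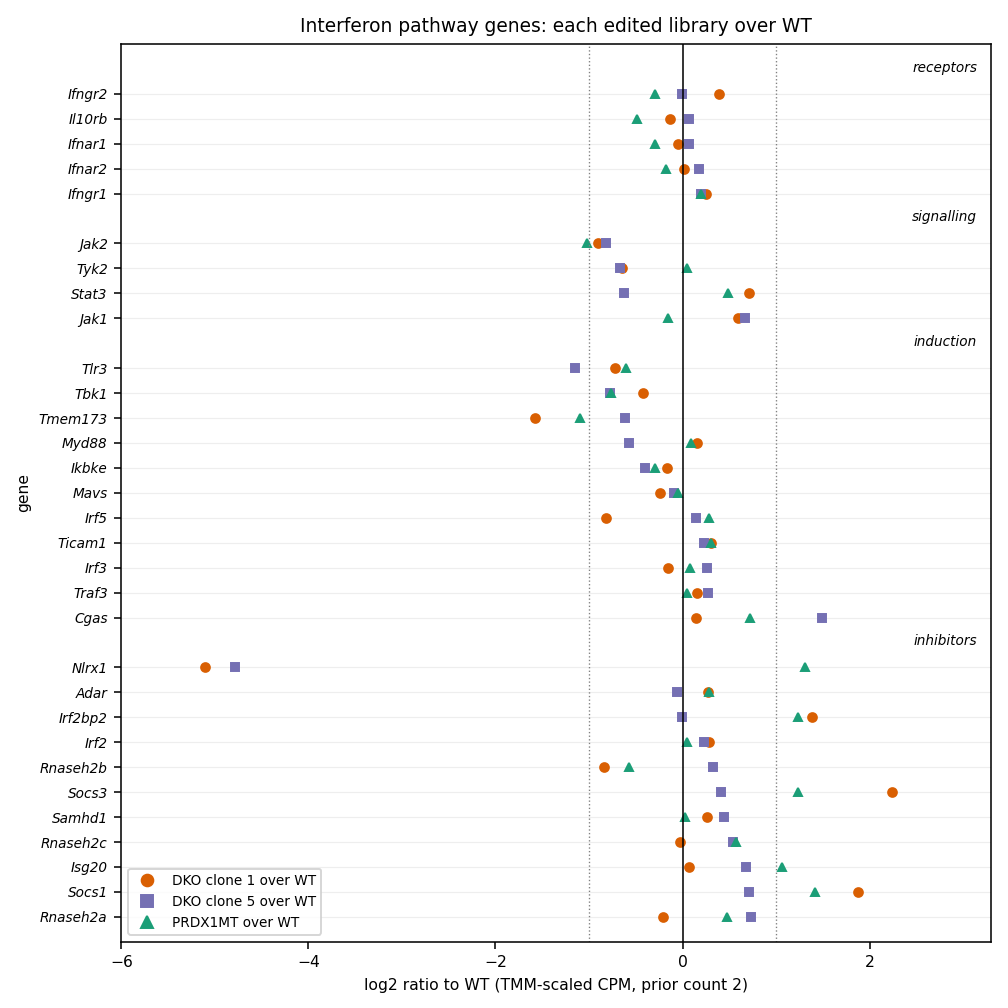
Log2 ratio to WT of the tested genes of the interferon pathway in DKO clone 1, DKO clone 5 and PRDX1MT, grouped as receptors, signalling, induction and inhibitors; dotted lines mark log2 ratios of 1 and -1. The receptors lie between the dotted lines in all 3 libraries, and Socs1 and Socs3 lie above 0 in all 3.

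A further 75 interferon-stimulated genes, none of them among the 42, were counted in the same way. By the size rule 15 of 42 with enough reads (35.7%) were lower and 2 (4.76%) higher in DKO clone 5 than in WT, beside 8.59% and 5.69% of all genes. In DKO clone 1, 2 of 45 (4.44%) were lower and 7 (15.6%) higher, beside 7.59% and 8.41%. In PRDX1MT, 7 of 43 (16.3%) were lower and 2 (4.65%) higher, beside 7.57% and 7.26%. DKO clone 5 was lower than DKO clone 1 in 18 of 43 (41.9%) and higher in 1 (2.33%), beside 10.7% and 7.63%. Their median log2 ratios to WT were 0.06, -0.91 and -0.46 in DKO clone 1, DKO clone 5 and PRDX1MT, beside -0.04, -0.02 and -0.01 over all genes. In edgeR's test 0 of 58 passed an adjusted p of 0.05 in DKO against WT and 0 of 58 against PRDX1MT, beside 0.468% and 0.206% of all genes. Tap2, the partner of TAP1, had 31.4 CPM in DKO clone 1, 1.71 CPM in DKO clone 5, 4.14 CPM in PRDX1MT and 12.2 CPM in WT. DKO clone 5 was thus 18.4-fold lower than DKO clone 1, and WT lay between them. Other genes lower in DKO clone 5 than in WT were the class I chains H2-K1, H2-D1 and H2-T23 and the peptide editor Tapbp, named after their values were seen.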

How the data were processed

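RNA was sequenced in 4 libraries. The kit removed ribosomal RNA and kept the strand, per the labels' protocols. STAR 2.6.1d and mm10 are named in the submitters' processing notes. How reads were counted, with which annotation and strand setting, is not given in the sources used here. Values are raw read counts per Ensembl gene, as the authors deposited them, and 54495 of 54532 IDs matched GENCODE M21 symbols.

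Counts were scaled by TMM, filtered by group with filterByExpr and tested with edgeR 4.0.16 (R 4.3.3, quasi-likelihood) on all 4 libraries with 3 groups, adjusted by Benjamini-Hochberg over 19446 genes. The residual degree of freedom was 1, the prior degrees of freedom 6.54 and the common dispersion 0.187. Log2 ratios of single libraries used a prior count of 2. TPM used exon lengths of GENCODE M21. DESeq2 1.42.0 was an alternative. The test was also tried on simulated data, whose outcome is not given here and is not used as support.

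The members and lists were chosen with earlier results of these data known. Values were given for the 3 members of each role with the highest mean CPM, members called or past the size rule in at least 2 comparisons with WT, the 3 highest and 3 lowest ratios past that rule in each comparison, and members under 20 reads in all. Xaf1, Mx2, Gbp3, Gbp7, Dtx3l and Ifit3b were named after their values were seen. Intervals cover counting error only. Alternatives were other scalings, filters, tools and size thresholds, and leaving out each clone. Promoters are from RefSeq. A gene of the pathway is not reported here.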

Additional observations from a re-analysis of the deposited data

Results flagged for a closer look

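Nlrx1, which encodes a mitochondrial protein that restrains antiviral signalling and belongs to the inhibitors of the pathway, went in opposite directions in the edited lines. It had 6 reads in DKO clone 1, 6 in DKO clone 5, 467 in PRDX1MT and 310 in WT. Its log2 ratio to WT was -5.11 in DKO clone 1, -4.78 in DKO clone 5 and 1.31 in PRDX1MT. In edgeR's quasi-likelihood test with Benjamini-Hochberg adjustment over all genes it fell in DKO against WT (log2 ratio -5.27, standard error 0.65, adjusted p = 0.0278). The difference between DKO and PRDX1MT was itself tested, with a log2 ratio of -6.59 and an adjusted p of 0.0265. The call depends on the filter: with at least 1 CPM in at least 2 libraries the adjusted p was 0.165 against WT and 0.14 against PRDX1MT, a setting in which 0 of 13847 genes passed. Without DKO clone 1, and with PRDX1MT and WT joined, it was 0.0667, and with total counts it was 0.0501 against PRDX1MT. Over all alternatives the adjusted p ran from 1.02e-09 to 0.165 against WT and from 4.91e-14 to 0.14 against PRDX1MT, with a log2 ratio below -5 in each. Exons of another gene cover 11.9% of its exonic bases.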

How the results depend on the processing

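The count of members called in DKO against WT, 0, became 1 with no filter on low counts and 1 with DESeq2, in both cases Ifih1, whose adjusted p was 3.434e-07 and 0.01017. In the other settings it stayed at 0. Of all genes 91 of 19446 were called, against 535 of 31043 with no filter, 262 of 19446 with DESeq2 and 0 of 13847 with at least 1 CPM in 2 libraries. Against PRDX1MT 0 members were called in any setting, and 40 genes became 404, 215, 0 and, with total counts, 7. By size, the 4 members in PRDX1MT became 9 with total counts, 11 with the smaller ratio threshold, 9 with a minimum of 20 reads, 0 with 500 reads and 0 in the edgeR contrast. Of all genes 14.8% passed, and 18%, 34.3%, 20.5%, 9.58% and 0% in these settings. The 5 in DKO clone 1 became 12, 8 and 3 with the smaller ratio, 20 reads and 500 reads, beside 34.2%, 21.5% and 11.3% of all genes. With 500 reads the 14 in DKO clone 5 became 5 of 11, beside 10.3% of all genes, and the 12 between the clones became 7 of 13, beside 15.5%. The median of the members in DKO against WT ranged from -1.448 to -0.0626 when either clone was left out. Without DKO clone 1, and with PRDX1MT and WT joined as the reference, the log2 ratios of DKO were -1.67 for Ifit1, -2.61 for Psmb9 and -1.82 for Gbp7. Against PRDX1MT alone, with all libraries, they were 1.25, 1.32 and 1.70. The reference differs between these values, so they do not show the effect of leaving out clone 1 alone. Against the same joined reference Gbp7 stood at -1.01 without DKO clone 5. None of these passed an adjusted p of 0.05. Total counts moved the median gene by -0.10 in DKO clone 1, -0.14 in DKO clone 5 and -0.27 in PRDX1MT against WT. With total counts in PRDX1MT, Irf1, Irf9 and Ifit2, which pass no threshold, were at -0.02, -0.12 and -0.20. The cause of the other changes was not tested. No paired analysis was possible because WT and PRDX1MT have 1 library each. Low reads limit 9 members outright, and with 1 library of WT its own spread is unknown.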

Other observations

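Among the further interferon-stimulated genes, Ifi207 and Mlkl are given for their values. Ifi207, a member of the family of DNA-binding IFI200 proteins, had 177 and 48 reads in DKO clones 1 and 5, 23 in PRDX1MT and 26 in WT, and its log2 ratio to WT was 2.87 in DKO clone 1. Mlkl, the executioner of necroptosis, had 1.46 and 5.27 CPM in DKO clones 1 and 5, 3.18 CPM in PRDX1MT and 7.95 CPM in WT. It was 5.45-fold lower in DKO clone 1 than in WT, and it was the only one of the 75 further genes that the size rule called higher in DKO clone 5 than in DKO clone 1, at a log2 ratio of 1.81. These are ratios of single libraries, called by size.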
